A study of Mus musculus with 35 samples.

Results

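The 10 genes described here encode cytosolic glutathione S-transferases of mouse liver: the alpha class members Gsta1, Gsta2, Gsta3 and Gsta4, the mu class members Gstm1, Gstm2, Gstm3 and Gstm4, and the pi class members Gstp1 and Gstp2. They were taken by name, not by their values, from a table of 55413 genes, though with earlier results of these data known. All 10 were among the 15297 genes kept for testing by a filter on low counts. Liver RNA of 21 C57Bl6 mice had been sequenced from the 3' end of each transcript, so counts do not scale with transcript length. Levels are given as CPM, counts relative to the library's total, which was adjusted between mice by the trimmed mean of M-values (TMM).

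The untreated group held 5 mice killed at day 260, labelled as normal liver. All other mice had received 25 mg/kg of the liver carcinogen diethylnitrosamine (DEN) by intraperitoneal injection at day 14, and their samples are labelled as DEN-induced tumours. Of these, 4 were killed at day 133 with no oligonucleotide. A further 6 were given a control antisense oligonucleotide (ASO) and 6 an ASO against Smyd3, a lysine methyltransferase gene, at 50 mg/kg, 2 times a week from day 133 until day 260. Both ASO groups thus carry DEN, so DEN and ASO injection cannot be told apart in their comparison with untreated mice. The day 133 mice differ from the ASO mice in age and injection, and from untreated mice in age and DEN. In such bulk tissue, fewer cells of a type and less RNA per cell cannot be told apart.

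Glutathione S-transferases join the thiol of glutathione to electrophiles, which makes them soluble for export, and they are among the most abundant detoxification enzymes of hepatocytes. Many of their genes are induced through NRF2 (gene Nfe2l2), which binds antioxidant response elements, and through the nuclear receptors CAR and PXR. Alpha class enzymes also reduce lipid peroxides, mu class enzymes act on epoxides and quinones, and pi class enzymes are abundant in the liver of male mice. In rat liver the pi class protein is a long-used marker of preneoplastic foci.

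In the GENCODE annotation of mm10 the genes lie in 4 places. Gsta4 (chr9:78182774-78209349), Gsta1 (chr9:78230656-78242684) and Gsta2 (chr9:78331018-78355788) lie together, while Gsta3 is alone at chr1:21240589-21265661. The mu genes are close together on chromosome 3: Gstm3 at chr3:107963696-107969283, Gstm2 at chr3:107981702-107986453, Gstm1 at chr3:108012255-108017973 and Gstm4 at chr3:108040408-108044894. Gstp1 (chr19:4035407-4037985) and Gstp2 (chr19:4040285-4046023) lie side by side on chromosome 19.

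RefSeq promoters (GRCm38.p6) were found for 9 of the 10 genes, all except Gsta4. The 250 bases before each start site were searched on both strands for the core of the antioxidant response element, as TGACNNNGC or TGAGNNNGC, and for the AP-1 site TGAGTCA, which can overlap the second form. Of 32851 promoters of that length, 23.0% held either form of the core and 4.46% the AP-1 site. Gstp1 and Gstp2 each have an element that is a core and an AP-1 site at once, and Gsta3 has a core of the other form. These 3 sites are shown because they are the forward-strand matches among the members, with the core in capitals and positions counted back from the RefSeq start site.
Gstp1, positions -84 to -56, chr19:4037968-4037996, minus strand: tccaacgtgtTGAGTCAGCatccggggcg
Gstp2, positions -99 to -71, chr19:4042292-4042320, minus strand: tccaacgtgtTGAGTCAGCatccggggcg
Gsta3, positions -131 to -103, chr1:21240454-21240482, plus strand: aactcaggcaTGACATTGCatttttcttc
The stretches of Gstp1 and Gstp2 have identical letters. Gstp1 also holds TGAGGACGC on the reverse strand at positions -9 to -1. The Gsta3 stretch is upstream of the annotated gene, that of Gstp2 is in an intron of the annotated gene, and part of that of Gstp1 is exonic in a longer annotated transcript. These letters were not found in the windows of Gsta1, Gsta2, Gstm1, Gstm2, Gstm3 and Gstm4. Bases farther upstream were not searched. The upstream sequences of Gsta1 and Gstm2, members that rose with the Smyd3 ASO, are given up to the first annotated exon base, without capitals since neither holds a searched motif.
Gsta1, chr9:78230419-78230655, plus strand: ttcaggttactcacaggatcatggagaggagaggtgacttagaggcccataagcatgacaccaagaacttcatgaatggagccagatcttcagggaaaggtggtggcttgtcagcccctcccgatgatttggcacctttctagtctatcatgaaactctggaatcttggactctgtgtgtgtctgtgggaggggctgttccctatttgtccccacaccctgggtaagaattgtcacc
Gstm2, chr3:107986454-107986670, minus strand: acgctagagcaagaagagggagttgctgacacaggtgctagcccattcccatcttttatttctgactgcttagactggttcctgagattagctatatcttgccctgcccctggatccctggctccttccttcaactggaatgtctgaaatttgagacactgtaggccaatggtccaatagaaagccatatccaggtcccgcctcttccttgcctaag
Over the 250 bases Gsta1 and Gsta2 were 71.2% identical, and Gstp1 and Gstp2 77.6%.

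Total counts per mouse were 6358080 to 20258619 with the Smyd3 ASO, 6789715 to 13805881 with the control ASO, 4556484 to 6447397 at day 133 and 10186780 to 13116012 in untreated mice. Smyd3 was 0.325 ± 0.289 CPM (SD, n = 6) with its own ASO, 3.87 ± 0.598 (n = 6) with the control ASO, 4.24 ± 1.17 (n = 4) at day 133 and 3.82 ± 1.10 (n = 5) in untreated mice. The 5 hepatocyte markers were found in every group, and acinar pancreas markers summed to at most 51.2 CPM. Of 5 sex chromosome genes, the Y-linked Ddx3y, Uty, Kdm5d and Eif2s3y were kept for testing and Xist was not. In each group 1 of the 5 was at 0. The 5 summed to 58.7 to 92.3 CPM in untreated mice and 85.8 to 116 at day 133. They summed to 89.8 to 103 CPM with the control ASO and 74.7 to 118 with the Smyd3 ASO. Scaling by library totals in place of TMM moved the median log2 difference of all genes to 0.90 for control ASO over untreated, 0.96 for Smyd3 ASO over untreated, 0.59 for day 133 over untreated, 0.28 for control ASO over day 133 and 0.34 for Smyd3 ASO over day 133. In the same order, the genes called higher and lower became 10036 and 687 (TMM: 3620 and 3398), 9522 and 893 (3734 and 3554), 6471 and 821 (2306 and 2533), 3855 and 985 (2200 and 1931), and 3369 and 736 (2011 and 1783).

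**Figure D1:**
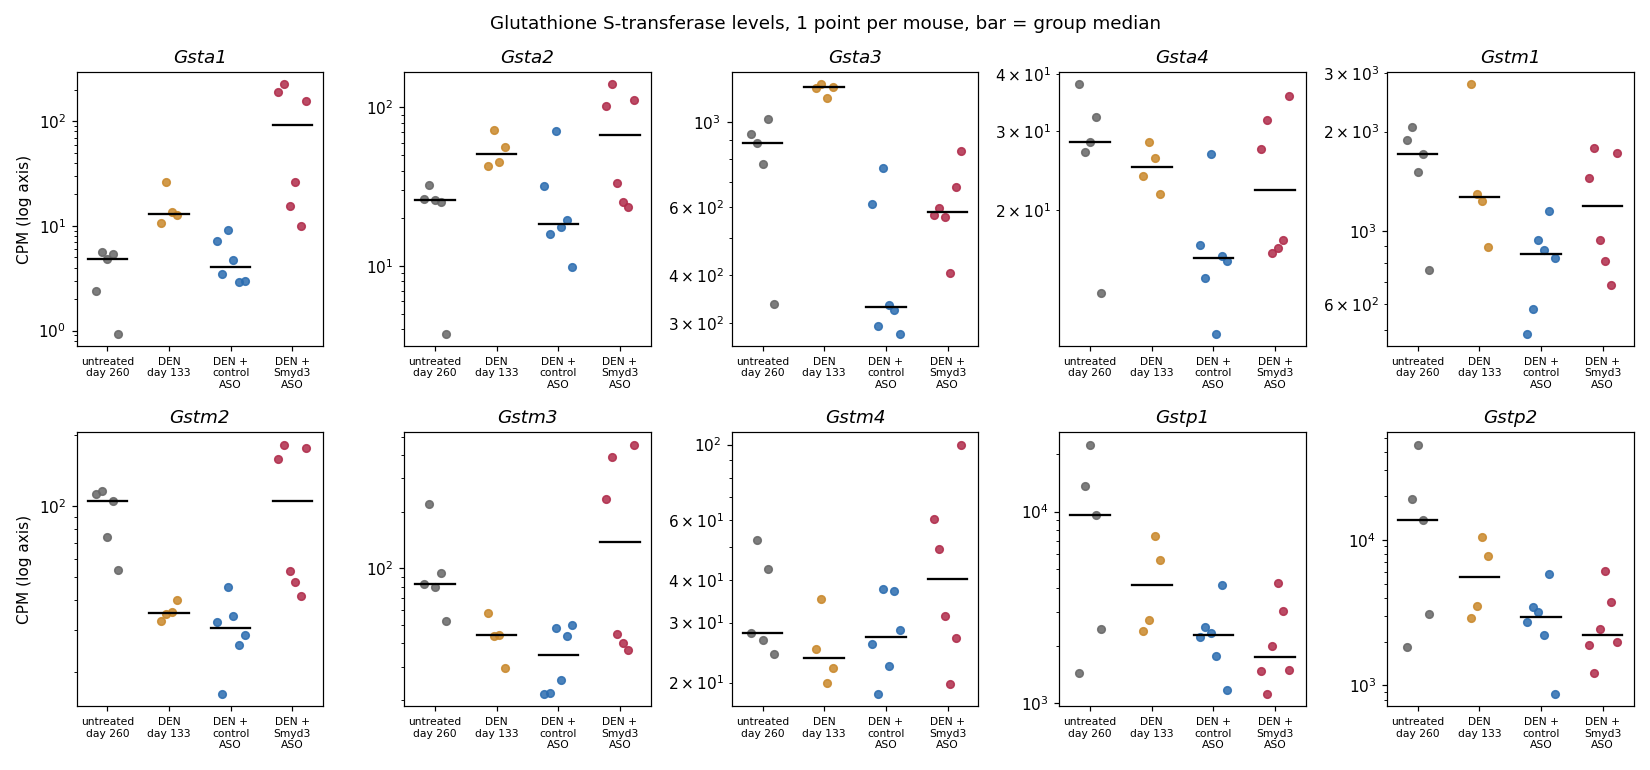
Level of each of the 10 genes in CPM on a log axis, 1 point per mouse and a bar at the group median, in untreated, DEN day 133, control-ASO and Smyd3-ASO mice. Gsta1 lay at 9.06 CPM or less in all untreated and control-ASO mice and at 10.1 CPM or more in all others, and Gstp1 spread over 1437 to 22382 CPM among untreated mice.

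The first question was whether lowering Smyd3 in DEN-treated mice changed these genes. Gsta1, Gstm2 and Gstm3 were higher in Smyd3-ASO than in control-ASO mice, and none of the 10 was lower, by edgeR's quasi-likelihood test with Benjamini-Hochberg adjustment over 15297 genes (threshold 0.05). Of all genes tested, 26.1% passed in this comparison (13.3% higher, 12.9% lower), and 3 of 10 is near that share. The median log2 difference of the 10 genes was 0.67, against 0.01 for all genes.

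Gsta1, an alpha class enzyme, had the largest difference of the 10. In control-ASO mice its lowest, median and highest levels were 2.90, 4.09 and 9.06 CPM. In Smyd3-ASO mice 1 to 6 it was 192, 226, 15.4, 26.0, 10.1 and 158 CPM. All 6 Smyd3-ASO mice lay above all 6 control mice, and mice 1, 2 and 6 stood apart from mice 3, 4 and 5. Of all genes, 11.1% did not overlap between these groups (5.27% higher, 5.83% lower). The log2 fold change was 4.37 ± 0.84 (SE), edgeR adjusted p = 0.00331, and it passed on leaving out each mouse in turn (12 of 12 fits).

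Gstm2, a mu class enzyme, was highest in the same mice. Its lowest, median and highest levels were 16.1, 30.4 and 45.4 CPM with control ASO. In Smyd3-ASO mice 1 to 6 it was 158, 182, 53.2, 47.8, 41.8 and 175 CPM. The groups overlapped only at Smyd3-ASO mouse 5 and control-ASO mouse 3. The log2 fold change was 1.84 ± 0.42 (SE), edgeR adjusted p = 0.00710.

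Gstm3, also of the mu class, had lowest, median and highest levels of 21.6, 34.7 and 50.1 CPM with control ASO. In Smyd3-ASO mice 1 to 6 it was 232, 390.5, 44.8, 40.3, 36.9 and 454 CPM. Mice 3, 4 and 5 lay within the control range and mice 1, 2 and 6 far above it. The log2 fold change was 2.49 ± 0.68 (SE), edgeR adjusted p = 0.0198. This call ended with limma voom (adjusted p = 0.0632), without the low-count filter (edgeR, adjusted p = 0.0511) and on the authors' normalized values (limma, adjusted p = 0.0685).

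The other alpha and mu members did not pass the test. Gsta2 was 102, 139.9, 33.2, 25.5, 23.4 and 111 CPM in Smyd3-ASO mice 1 to 6, with a log2 fold change of 1.39 ± 0.58 and an edgeR adjusted p of 0.0982. Gsta4, which acts on lipid peroxidation aldehydes, was 27.3, 31.8, 16.1, 16.5, 17.2 and 35.8 CPM in the same mice (log2 fold change 0.53 ± 0.25). Mice 1, 2 and 6 were again the highest for both genes. Gstm1, the most abundant mu member, was 1441, 1785, 937, 810.5, 684 and 1719 CPM (log2 fold change 0.60 ± 0.27), and Gstm4 was 60.5, 49.4, 31.3, 19.7, 27.0 and 100 CPM (log2 fold change 0.74 ± 0.35). Mice 1, 2 and 6 were the highest for these as well. Gsta3, the most abundant alpha member, was 574, 596, 568, 406, 677 and 842 CPM (log2 fold change 0.48 ± 0.26), and mice 1, 2 and 6 did not stand apart. Control-ASO mouse 3 was the highest control for Gsta1, Gsta2, Gsta3, Gsta4, Gstm2 and Gstm4. Without it, edgeR adjusted p was 0.0233 for Gsta2, 0.0401 for Gsta3 and 0.0415 for Gsta4, and 6 members passed. Fits that left out 1 mouse called 3233 to 4446 of all genes in this comparison.

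The pi members did not pass the test. Gstp1 was 1481, 1119, 1987, 4241, 3024 and 1484 CPM in Smyd3-ASO mice 1 to 6, and its lowest, median and highest levels were 1179, 2271 and 4133 CPM with control ASO. The log2 fold change was -0.09 ± 0.34, with a 95% interval of -0.76 to 0.59. Gstp2 gave -0.08 ± 0.43, with a 95% interval of -0.93 to 0.76. Here mice 1, 2 and 6 were the lowest 3 of the 6.

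**Figure D2:**
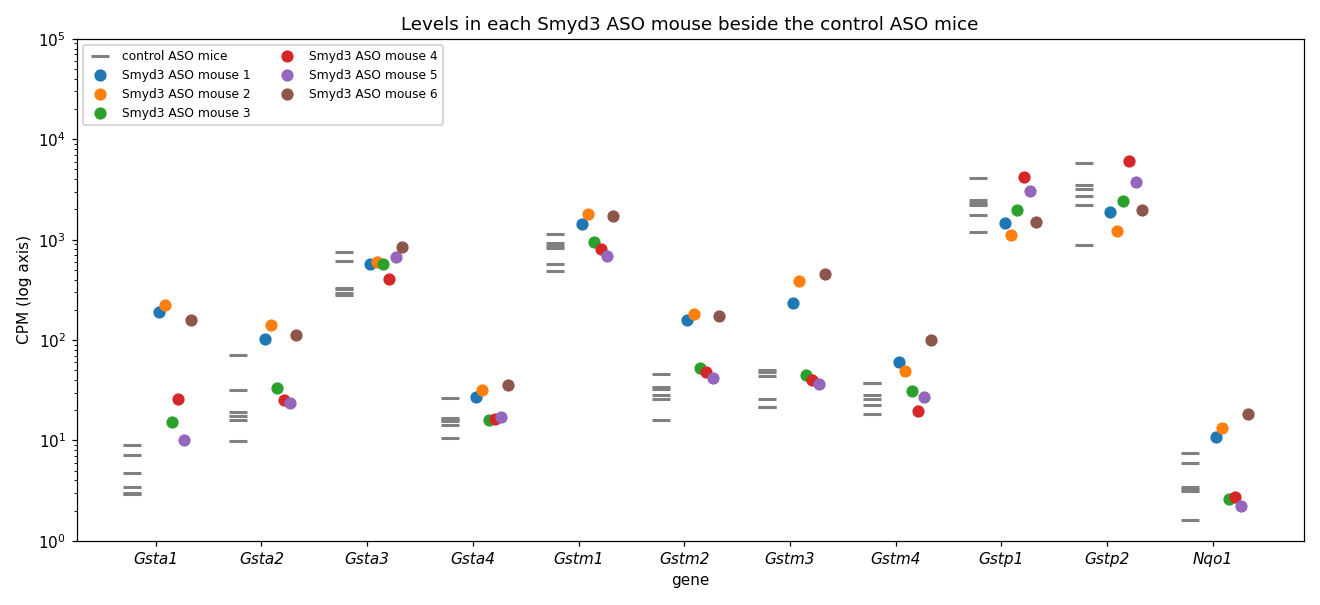
Level in CPM (log axis) of the 10 genes and of Nqo1, a quinone reductase and NRF2 target, with 1 coloured point per Smyd3-ASO mouse and a grey dash per control-ASO mouse. Mice 1, 2 and 6 (blue, orange, brown) were the highest for Gsta1, Gsta2, Gsta4, Gstm1, Gstm2, Gstm3, Gstm4 and Nqo1. They were the lowest for Gstp1 and Gstp2. Nqo1 was named after its values were seen, and 11 of 19 other NRF2 targets, a list that includes Nqo1, did not have this order.

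Over 19 other NRF2 targets the 6 mice had no single order. Mice 1, 2 and 6 were the highest 3 for 8 genes: Nqo1, Srxn1, Ephx1, Cbr1, Cbr3, Ugdh, Pgd and Blvrb. For the other 11, Txnrd1 and Txn1 among them, they were not. The share of all genes with this order was not computed. Nqo1, named after its values were seen, was at 10.8, 13.2 and 18.2 CPM in mice 1, 2 and 6. Mice 3, 4 and 5 had 2.60, 2.75 and 2.25 CPM of Nqo1. Nqo1 did not pass as a group difference (log2 fold change 0.98 ± 0.57, edgeR adjusted p = 0.217). The thioredoxin reductase gene Txnrd1, which did pass, was 30.9, 45.8, 49.4, 35.4, 32.9 and 48.7 CPM in mice 1 to 6, with mouse 3 the highest and mouse 1 the lowest. Thioredoxin Txn1 was 537, 533, 368, 351, 313 and 298 CPM, with mouse 6 the lowest. Smyd3-ASO mice 1 to 6 had 2, 3, 3, 3, 2 and 1 libraries merged, and control-ASO mice 2 each. Marker levels moved between these groups too. Pericentral hepatocyte markers (6 genes, none at 0) summed to 635 to 2463 CPM with the control ASO and 2124 to 4098 CPM with the Smyd3 ASO, with 3 of 6 higher. General hepatocyte markers (5 genes, none at 0) summed to 54502 to 79270.1 and 20599 to 42766 CPM, with 4 of 5 lower. Bile duct markers (6 genes, none at 0) summed to 108 to 228 and 43.2 to 72.8 CPM, with 1 higher and 2 lower of 4 tested. Adipocyte markers (4 genes) summed to 21.5 to 84.7 and 42.3 to 172 CPM, with 1 of 4 higher, Cfd (4.91 ± 1.16). Periportal hepatocyte markers were 0 higher and 1 lower of 5 tested. Kupffer cell or macrophage markers were 1 and 0 of 5 and T or NK cell markers 0 and 0 of 2. B cell markers were 1 and 0 of 1, neutrophil markers 1 and 0 of 4 and acinar pancreas markers 0 and 0 of 1. Sinusoidal endothelial markers were 0 and 2 of 5 and stellate cell or fibroblast markers 0 and 0 of 5. Their part in the differences of the glutathione S-transferases was not tested.

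The second comparison set control-ASO mice against untreated mice of the same age. Of the 10 members 7 were lower and none higher, where 45.9% of all genes passed (23.7% higher, 22.2% lower). They were Gsta3, Gsta4, Gstm1, Gstm2, Gstm3, Gstp1 and Gstp2, so each class had some. The median log2 difference of the 10 was -0.92, against 0.06 for all genes.

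Gstm2 was 112, 116, 73.9, 105 and 53.6 CPM in untreated mice 1 to 5, above all control-ASO mice. Its log2 fold change was -1.60 ± 0.25 (SE), edgeR adjusted p = 2.4e-04. Gstm3 was 82.5, 218, 79.3, 94.5 and 52.4 CPM in untreated mice, again with no overlap, and gave -1.59 ± 0.38, edgeR adjusted p = 0.00611. These mu genes were the 2 members whose groups did not overlap. Of all genes, 27.6% did not overlap between these groups (13.8% higher, 13.8% lower). Gstm1 was 1884, 2066, 1509.9, 1707 and 762 CPM in untreated mice and 488 to 1147 CPM with control ASO, a log2 fold change of -0.97 ± 0.26, edgeR adjusted p = 0.00782. Untreated mouse 5 was the only untreated mouse within the control-ASO range of Gstm1.

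The pi genes had the largest fitted falls and the widest spread. Gstp1 was 1437, 13685, 22382, 9567 and 2426 CPM in untreated mice 1 to 5, a 15.6-fold range, and 1179 to 4133 CPM in control-ASO mice. Gstp2 was 1839, 18914, 44925, 13629.6 and 3082 CPM, a 24.4-fold range, against 875 to 5831 CPM. Untreated mice 1 and 5 thus lay within the control-ASO range and mice 2, 3 and 4 above it. The log2 fold changes were -2.07 ± 0.62 for Gstp1 (edgeR adjusted p = 0.0167) and -2.43 ± 0.76 for Gstp2 (edgeR adjusted p = 0.0221). Without untreated mouse 3, in which these genes made up 3.82% of all counts, the Gstp2 value was -1.62 (edgeR adjusted p = 0.0672). In that fit 4 members passed, and fits that left out 1 mouse called 6208 to 6886 of all genes. Both pi calls ended with limma voom (adjusted p = 0.0864 for Gstp1 and 0.0978 for Gstp2), without the low-count filter (edgeR, 0.0566 and 0.0620) and on the authors' normalized values (limma, 0.0910 and 0.101).

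Among alpha members, Gsta3 was 934, 881, 779, 1019.7 and 337 CPM in untreated mice, and its lowest, median and highest levels were 282, 329 and 762 CPM with control ASO. Gsta4 was 38.0, 26.9, 28.4, 32.2 and 13.1 CPM in untreated mice, and 10.7, 15.7 and 26.7 CPM (lowest, median, highest) with control ASO. The log2 fold changes were -0.86 ± 0.32 (edgeR adjusted p = 0.0434) and -0.75 ± 0.26 (edgeR adjusted p = 0.0317), and each call held in only 3 of 11 fits that left out 1 mouse. Without the low-count filter edgeR adjusted p was 0.133 for Gsta3 and 0.0778 for Gsta4. Untreated mouse 5 was the lowest of its group for all 8 alpha and mu members. The same mouse had 13.0 CPM of Dbp, a clock-controlled transcription factor gene, where untreated mice 1 to 4 had 119, 92.1, 118 and 105 CPM. Its part in the result was not tested. Gsta1 (2.36, 5.69, 4.83, 5.37 and 0.936 CPM in untreated mice), Gsta2 (26.4, 32.2, 26.0, 25.3 and 3.74 CPM) and Gstm4 (28.0, 52.3, 26.7, 43.0 and 24.2 CPM) did not pass, with log2 differences of 0.39, 0.27 and -0.30.

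In untreated mice pericentral hepatocyte markers summed to 3235 to 5745 CPM, general hepatocyte markers to 64065 to 111250.1 CPM, bile duct markers to 14.8 to 30.8 CPM and adipocyte markers to 9.66 to 19.2 CPM. In control ASO over untreated, 4 of 6 pericentral and 2 of 5 general hepatocyte markers were lower. Of those tested, 3 of 4 bile duct and 2 of 4 adipocyte markers were higher. Periportal hepatocyte markers were 1 higher and 4 lower of 5. Kupffer cell or macrophage markers were 0 and 2 of 5 and T or NK cell markers 1 and 0 of 2. B cell markers were 0 and 0 of 1, neutrophil markers 0 and 0 of 4 and acinar pancreas markers 0 and 0 of 1. Sinusoidal endothelial markers were 2 and 2 of 5 and stellate cell or fibroblast markers 0 and 2 of 5. Their part in the result was not tested.

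Under scaling by library totals 2 members passed, Gsta1 as higher and Gstm2 as lower, and the signs of Gsta4 and Gstm4 turned. Relative to the median of all genes under that scaling, Gsta4 was at -0.83, Gstm4 at -0.35, Gsta3 at -0.96 and Gstm1 at -1.03. Gstm3 was at -1.62, Gstm2 at -1.68, Gstp1 at -2.04 and Gstp2 at -2.38 on the log2 scale. Subtracting that median centres the genes much as TMM does, so these values are no separate test of the signs.

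**Figure D3:**
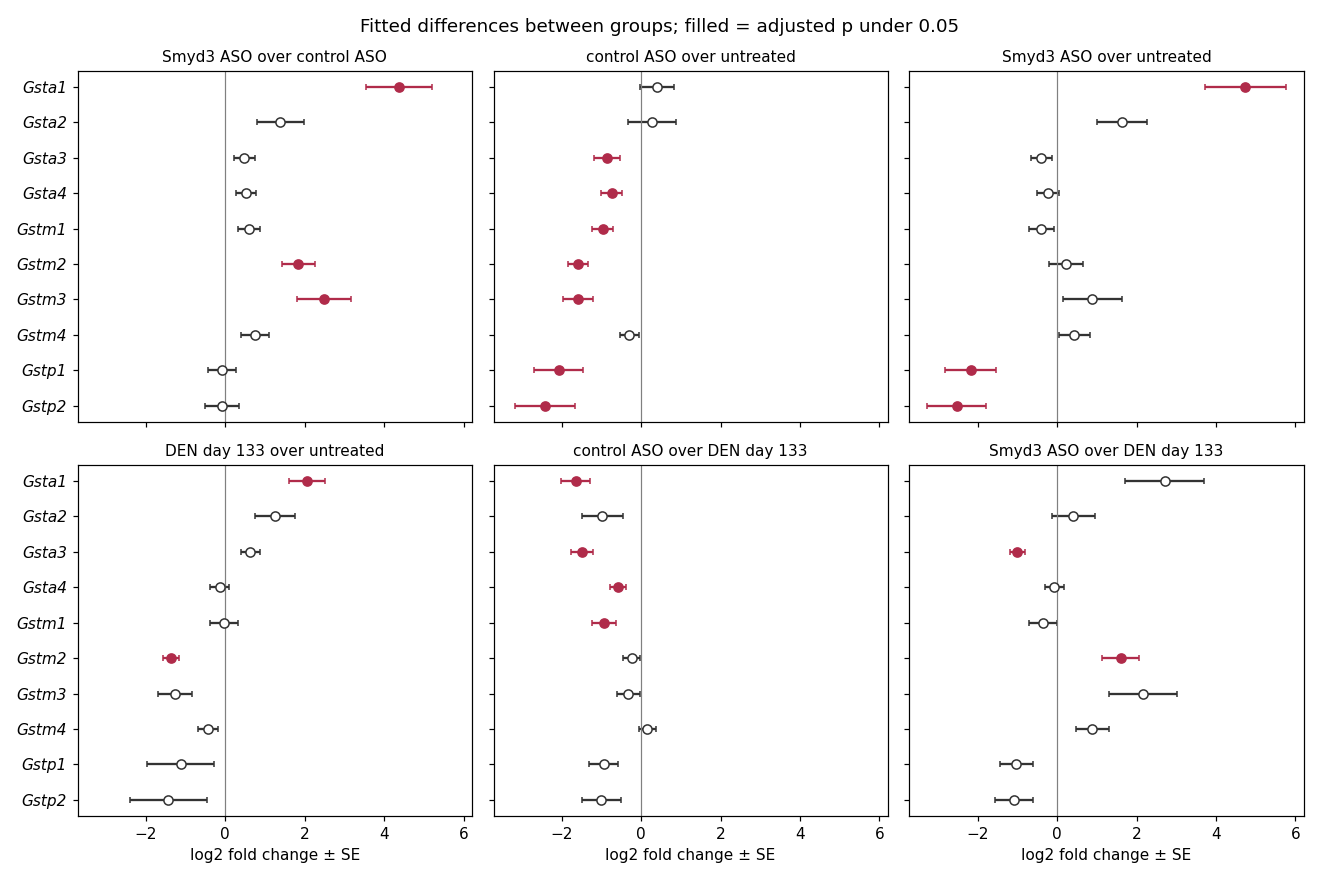
Log2 fold change ± SE of each of the 10 genes in the 6 comparisons of groups, with filled red points where the edgeR adjusted p was under 0.05. The 7 filled points of control ASO over untreated lie left of 0 (under scaling by library totals Gsta4 lies right of it), and Gsta1, Gstm2 and Gstm3 lie farthest right in Smyd3 ASO over control ASO.

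Smyd3-ASO mice were then set against untreated mice, a comparison that shares its groups with those before. Here 1 member was higher and 2 were lower, where 47.6% of all genes passed (24.4% higher, 23.2% lower). Gsta1 gave a log2 fold change of 4.74 ± 1.02 (edgeR adjusted p = 0.00342) with no overlap. Of all genes, 28.4% did not overlap between these groups (13.9% higher, 14.6% lower). Gstp1 (-2.18 ± 0.64, edgeR adjusted p = 0.0142) and Gstp2 (-2.53 ± 0.74, edgeR adjusted p = 0.0143) were lower. Both pi calls ended with limma voom (adjusted p = 0.0571 for Gstp1 and 0.0612 for Gstp2), without the low-count filter (edgeR, 0.0607 and 0.0573) and on the authors' normalized values (limma, 0.0623 and 0.0663). Without untreated mouse 3 the Gstp2 value was -1.72. Gstm2 and Gstm3 were 41.8 to 182 and 36.9 to 454 CPM with Smyd3 ASO, and their log2 differences from untreated mice of 0.22 ± 0.43 and 0.89 ± 0.75 did not pass. Of the cell type markers tested here, general hepatocyte markers were 0 higher and 5 lower of 5 (median log2 difference -1.42). Pericentral markers were 1 and 1 of 6 (-0.02) and bile duct markers 3 and 0 of 4 (1.63). Adipocyte markers were 2 and 0 of 4 (2.69) and periportal hepatocyte markers 1 and 3 of 5. Kupffer cell or macrophage markers were 2 and 2 of 5 and T or NK cell markers 1 and 0 of 2. B cell markers were 0 and 0 of 1, neutrophil markers 1 and 0 of 4 and acinar pancreas markers 0 and 1 of 1. Sinusoidal endothelial markers were 1 and 2 of 5 and stellate cell or fibroblast markers 1 and 3 of 5. Their part in the result was not tested.

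Mice killed at day 133 show DEN livers before any ASO. Against untreated mice Gsta1 was higher and Gstm2 lower, 2 of 10, where 31.6% of all genes passed (15.1% higher, 16.6% lower). Gsta1 was 10.7, 26.1, 13.5 and 12.6 CPM at day 133, above all untreated mice, with a log2 fold change of 2.05 ± 0.45 (edgeR adjusted p = 0.00684). This call ended with all 21 mice in 1 fit (edgeR adjusted p = 0.0707). Gstm2 was 32.6, 34.9, 35.7 and 40.0 CPM, below all untreated mice, with -1.36 ± 0.20 (edgeR adjusted p = 2.0e-04). Gsta2 (42.5, 71.6, 45.5 and 56.2 CPM) and Gsta3 (1229, 1256, 1157 and 1235 CPM) also lay above all untreated mice but did not pass (edgeR adjusted p = 0.101 and 0.0650). Of all genes, 27.1% did not overlap between these groups (12.6% higher, 14.5% lower). Without untreated mouse 5, edgeR adjusted p was 3.4e-04 for Gsta2, 0.0111 for Gsta3 and 0.0331 for Gstm3, and 5 members passed. Over the fits that left out 1 mouse, 3977 to 4947 of all genes passed. Gstp1 was 2392, 2719.6, 7499.6 and 5572 CPM and Gstp2 2891, 3480.4, 10449 and 7675 CPM, within the untreated range.

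At day 133 general hepatocyte markers summed to 43705 to 47486 CPM, pericentral markers to 3002 to 4516 CPM, bile duct markers to 22.6 to 50.5 CPM and adipocyte markers to 16.2 to 98.0 CPM. Of the cell type markers tested here, general hepatocyte markers were 0 higher and 4 lower of 5 (median log2 difference -1.09). Pericentral markers were 1 and 1 of 6 (-0.06) and bile duct markers 1 and 1 of 4 (1.15). Adipocyte markers were 3 and 0 of 4 (4.83) and periportal hepatocyte markers 1 and 2 of 5. Kupffer cell or macrophage markers were 1 and 1 of 5 and T or NK cell markers 0 and 0 of 2. B cell markers were 0 and 1 of 1, neutrophil markers 0 and 0 of 4 and acinar pancreas markers 0 and 0 of 1. Sinusoidal endothelial markers were 2 and 2 of 5 and stellate cell or fibroblast markers 0 and 1 of 5. The adipocyte markers that passed were the adipsin gene Cfd (8.03 ± 0.97), the adiponectin gene Adipoq (5.12 ± 1.44) and the lipid droplet gene Plin1 (4.53 ± 1.14). Their part in the result was not tested.

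From day 133 to control-ASO mice, 4 members were lower and none higher, where 27.0% of all genes passed (14.4% higher, 12.6% lower). Gsta1 gave -1.65 ± 0.36 (edgeR adjusted p = 0.00576) and Gsta3 -1.48 ± 0.27 (edgeR adjusted p = 0.00179), both with no overlap. Of all genes, 21.3% did not overlap between these groups (11.3% higher, 9.99% lower). The Gsta1 call ended with all 21 mice in 1 fit (edgeR adjusted p = 0.124). Gsta4 gave -0.59 ± 0.20 (edgeR adjusted p = 0.0410) and Gstm1 -0.94 ± 0.31 (edgeR adjusted p = 0.0430). On leaving out 1 mouse, Gsta4 passed in 1 of 10 fits and Gstm1 in 2 of 10. The Gsta4 call also ended with all 21 mice in 1 fit (edgeR adjusted p = 0.122), and the Gstm1 call with limma voom (adjusted p = 0.0729). Without day 133 mouse 1, whose Gstm1 level of 2781 CPM was the highest of all mice, the Gstm1 value was -0.49 (edgeR adjusted p = 0.172). Of the cell type markers tested here, general hepatocyte markers were 1 higher and 0 lower of 5 (median log2 difference 0.47). Pericentral markers were 0 and 3 of 6 (-1.35) and bile duct markers 2 and 0 of 4 (1.74). Adipocyte markers were 0 and 2 of 4 (-2.96) and periportal hepatocyte markers 0 and 1 of 5. Kupffer cell or macrophage markers were 0 and 3 of 5 and T or NK cell markers 0 and 0 of 2. B cell markers were 1 and 0 of 1, neutrophil markers 1 and 0 of 4 and acinar pancreas markers 0 and 0 of 1. Sinusoidal endothelial markers were 1 and 1 of 5 and stellate cell or fibroblast markers 1 and 1 of 5. The pericentral markers that passed were the glutamine synthetase gene Glul (-1.58 ± 0.32), Cyp2e1 (-1.36 ± 0.35) and the glutamate transporter gene Slc1a2 (-1.62 ± 0.31). Their part in the result was not tested.

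From day 133 to Smyd3-ASO mice, Gstm2 was higher (1.60 ± 0.47, edgeR adjusted p = 0.0330) and Gsta3 lower (-1.01 ± 0.19, edgeR adjusted p = 0.00287), 2 of 10 where 24.8% of all genes passed (13.1% higher, 11.7% lower). Neither gene's groups overlapped. Of all genes, 19.3% did not overlap between these groups (9.80% higher, 9.47% lower). On leaving out 1 mouse, Gstm2 passed in 3 of 10 fits and Gsta3 in 10 of 10, and the Gstm2 call ended with limma voom (adjusted p = 0.0778). Of the cell type markers tested here, general hepatocyte markers were 0 higher and 3 lower of 5 (median log2 difference -0.57). Pericentral markers were 0 and 0 of 6 (0.06) and bile duct markers 2 and 0 of 4 (1.28). Adipocyte markers were 1 and 0 of 4 (-0.36) and periportal hepatocyte markers 0 and 1 of 5. Kupffer cell or macrophage markers were 0 and 2 of 5 and T or NK cell markers 0 and 0 of 2. B cell markers were 1 and 0 of 1, neutrophil markers 3 and 0 of 4 and acinar pancreas markers 0 and 0 of 1. Sinusoidal endothelial markers were 1 and 3 of 5 and stellate cell or fibroblast markers 0 and 1 of 5. Their part in the result was not tested. Dbp was 1.53 to 8.85 CPM at day 133, 5.31 to 33.4 with Smyd3 ASO, 9.48 to 107 with control ASO and 13.0 to 119 CPM in untreated mice, and its part in these differences was not tested.

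By group median, the order of Gsta1 was control ASO (4.09 CPM), untreated (4.83), day 133 (13.1) and Smyd3 ASO (92.0). The neighbours control ASO and untreated overlapped and did not pass (log2 difference of control ASO over untreated 0.39 ± 0.43, edgeR adjusted p = 0.480). By group mean their order was the reverse, with 5.05 CPM for control ASO and 3.84 CPM for untreated. The neighbours day 133 and Smyd3 ASO overlapped too, with a log2 difference of 2.71 ± 1.00 and a 95% interval of 0.74 to 4.67. It missed the threshold after adjustment over all genes (edgeR adjusted p = 0.0788) and passed in 1 of 10 fits that left out 1 mouse. Summed over its members, the alpha class was 844 ± 288 CPM (SD, n = 5) in untreated, 1314 ± 57.6 (n = 4) in day 133, 484 ± 229.8 (n = 6) for the control ASO and 812 ± 247 (n = 6) for the Smyd3 ASO. The mu class was 1818 ± 587, 1654 ± 849, 901 ± 260.1 and 1587 ± 756 CPM in the same order. The pi class, the most abundant by mean in each group, was 26377 ± 25948, 10669.8 ± 6017, 5403 ± 2629 and 5116 ± 2968 CPM.

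Some members may share reads with copies, since a 3' end method reads a part in which they are alike. The last 200 bases of Gsta1 were 99.0% identical to Gm3776, an annotated alpha class copy, and 93.5% to Gsta2. Those of Gstp1 and Gstp2 were 100% identical. The ratio of Gsta1 to Gm3776 counts lay between 0.841 and 1.40 in the 21 mice (median 1.11), and that of Gstp1 to Gstp2 counts between 0.498 and 1.35 in the 21 mice (median 0.781). Gsta1 and Gm3776 had equal counts in 4 of the 21 mice. The values of these genes are therefore uncertain one by one. Sums have a limit too, since a read counted for several copies would enter a sum several times. With Gsta1, Gsta2, Gm3776 and Gm10639 summed, the log2 fold change of Smyd3 over control ASO was 2.73 ± 0.72 (edgeR adjusted p = 0.0171). The sum did not pass for day 133 over untreated (1.30, edgeR adjusted p = 0.102) or control ASO over day 133 (-1.04, edgeR adjusted p = 0.136), where Gsta1 alone did. The sum of Gstp1, Gstp2 and Gstp3 was lower than in untreated mice, with log2 fold changes of -2.25 ± 0.68 for control ASO (edgeR adjusted p = 0.0175) and -2.38 ± 0.69 for Smyd3 ASO (edgeR adjusted p = 0.0135).

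**Figure D4:**
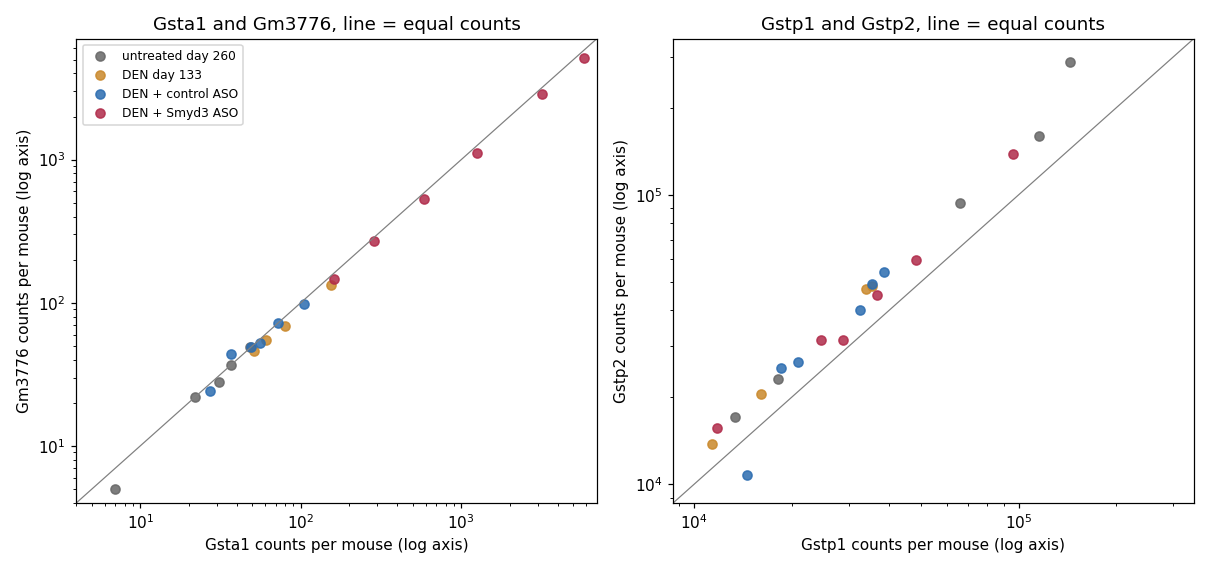
Raw counts per mouse on log axes of Gsta1 against Gm3776 (left) and of Gstp1 against Gstp2 (right), coloured by group, with a line of equal counts. The Gsta1 points lie near the line over the whole range, and the Gstp points lie above it in all mice but one, with more counts on Gstp2.

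Other glutathione transferase genes went both ways. Of 19 listed, 16 were tested, and 4 were higher and 4 lower in Smyd3-ASO than in control-ASO mice. Of all genes, 13.3% were higher and 12.9% lower there. Gstm5, a mu class gene, was lower (-1.21 ± 0.13, edgeR adjusted p = 5.4e-05), as was the pi class gene Gstp3 (-1.30 ± 0.16, edgeR adjusted p = 1.1e-04), both without overlap. Gm3776 (4.23 ± 0.82) and the mitochondrial and peroxisomal Gstk1 (0.77 ± 0.18) were higher. Gm3776 may share reads with Gsta1, so it is not a separate result. Gstp3 was 53.6 to 81.6 CPM in untreated, 113 to 169 with the control ASO and 39.7 to 72.2 CPM with the Smyd3 ASO. It was higher in control-ASO than in untreated mice (1.08 ± 0.16, edgeR adjusted p = 7.4e-05), where Gstp1 and Gstp2 were lower. In that comparison 7 of 16 were lower and 1 higher, where 22.2% of all genes were lower and 23.7% higher. Gsto1 (-1.28 ± 0.14) and the microsomal Mgst1 (-1.15 ± 0.22) and Mgst3 (-1.81 ± 0.34) were among the lower.

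The genes around glutathione are given by list, as counts past the test. Of all genes, 26.1% passed in Smyd3-ASO over control-ASO mice (13.3% higher, 12.9% lower). In control ASO over untreated it was 45.9% (23.7% higher, 22.2% lower). In glutathione synthesis and turnover, 6 of 19 were higher and 1 lower in Smyd3-ASO over control-ASO mice. Slc3a2, a subunit of the cystine importer, was lower (-1.09 ± 0.21), and the acetyltransferase gene Nat8 (1.65 ± 0.34), Ggt6 (0.95 ± 0.23) and the oxoprolinase gene Oplah (0.54 ± 0.15) were higher. In control ASO over untreated, 8 of 19 were lower and 2 higher. Among the lower were Oplah (-2.12 ± 0.14), Cbs, which makes cystathionine from homocysteine (-1.83 ± 0.17), Acy3 (-1.64 ± 0.22) and Gclm, the modifier subunit of the first synthesis enzyme (-0.62 ± 0.12).

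Of glutathione peroxidases and thiol exchange genes, 3 of 11 were higher and none lower with Smyd3 ASO over control ASO. Of all genes, 26.1% passed there (13.3% higher, 12.9% lower), and 3 of 11 is near that share. They were the glutaredoxins Glrx5 (0.75 ± 0.16) and Glrx3 (0.48 ± 0.16) and the peroxidase Gpx1 (0.62 ± 0.21). In control ASO over untreated 6 of 11 were lower and none higher, where 45.9% of all genes passed (23.7% higher, 22.2% lower). Gpx1 was at -1.45 ± 0.23, Gpx7 at -1.59 ± 0.45 and the hydrolase Hagh at -1.04 ± 0.18. The export pumps, which carry conjugates out of the cell, gave 3 of 8 higher and none lower in control ASO over untreated: Abcc5 (2.55 ± 0.24), Abcc4 (1.55 ± 0.38) and Abcc1 (1.47 ± 0.40). With Smyd3 ASO over control ASO, Abcg2 (0.76 ± 0.18) and Abcc4 (1.09 ± 0.36) were higher and Abcc2 (-0.62 ± 0.18) lower.

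Of 19 other NRF2 targets, 10 were higher and 1, G6pdx, lower in Smyd3-ASO than in control-ASO mice. Of all genes, 13.3% were higher and 12.9% lower. The median log2 difference of the 19 was 0.97, against 0.01 for all genes. Among the higher were thioredoxin Txn1 (1.36 ± 0.17, edgeR adjusted p = 1.2e-04), its reductase Txnrd1 (0.68 ± 0.15), Ugdh, which makes the glucuronic acid donor (1.30 ± 0.30), and the epoxide hydrolase Ephx1 (1.08 ± 0.25). In control ASO over untreated 10 of 19 were lower and 4 higher, where 22.2% of all genes were lower and 23.7% higher. The carbonyl reductase Cbr1 (-2.51 ± 0.16) and the ferritin genes Ftl1 (-1.43 ± 0.20) and Fth1 (-1.05 ± 0.15) were lower, and heme oxygenase Hmox1 (3.25 ± 0.22) was higher.

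Regulators of these genes were 4 higher and 4 lower of 18 in Smyd3 over control ASO. Of all genes, 26.1% passed there (13.3% higher, 12.9% lower). The transcription factor Cebpb (2.13 ± 0.36) and the aryl hydrocarbon receptor Ahr (1.21 ± 0.23) were higher, and Cebpa (-0.69 ± 0.16) and Keap1, which targets NRF2 for degradation (-0.55 ± 0.14), were lower. In control ASO over untreated 2 of 18 were higher and 6 lower, where 45.9% of all genes passed (23.7% higher, 22.2% lower). Among them were Hnf4a at -1.01 ± 0.12, Cebpa at -1.32 ± 0.18 and Cebpb at -1.46 ± 0.29. Bach1, a repressor at antioxidant response elements, was at 0.70 ± 0.18. Of 8 tested CAR, PXR and AhR targets, 4 were higher and none lower with Smyd3 ASO over control ASO. They were Cyp2b10 (3.60 ± 0.62, edgeR adjusted p = 0.00125), Cyp3a11 (0.93 ± 0.26), Por (1.16 ± 0.32) and Cyp2c55 (1.75 ± 0.55). In control ASO over untreated 6 of 8 were lower and none higher, with the heme synthesis enzyme Alas1 at -3.33 ± 0.32, Cyp1a2 at -3.16 ± 0.49, Cyp2c55 at -2.63 ± 0.55 and Cyp3a11 at -1.89 ± 0.29.

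**Figure D5:**
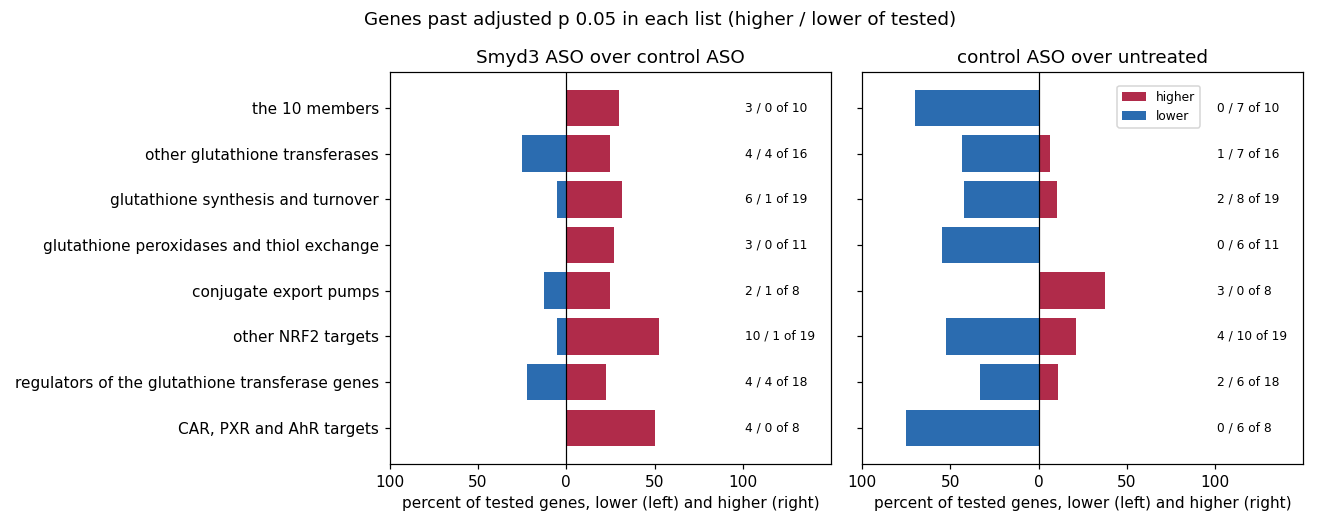
Percent of tested genes of each list past an edgeR adjusted p of 0.05, higher to the right and lower to the left, for Smyd3 ASO over control ASO and for control ASO over untreated, with the counts (higher / lower of tested) at the right. Of the 10 members 3 were higher in the first comparison and 7 lower in the second. Of all genes, 13.3% were higher and 12.9% lower in the first, and 23.7% and 22.2% in the second.

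Across the 21 mice, the genes whose log2 CPM was most like that of the most abundant member of each class are a description, and the values share the libraries and their scaling. For Gsta3 they were Akr1c19 (Pearson r = 0.93), Ugt2b34 (0.92), Ces1e (0.91), Ces1d (0.91) and Arl6ip1 (0.90). For Gstm1 they were Ephx1 (0.80), Tyw1 (0.75), Nadk (0.75), Ces2d-ps (0.74) and Ces2c (0.74). For Gstp2 they were March6 (0.77), Tmed10 (0.76), N4bp2 (0.75), Atg13 (0.75) and Klkb1 (0.74). Among the members r was 0.90 for Gstm2 with Gstm3, 0.86 for Gsta1 with Gsta2, 0.86 for Gstm3 with Gstm4, 0.75 for Gsta3 with Gsta4 and -0.29 for Gsta1 with Gstp1.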

How the data were processed

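Liver RNA of 21 mice in 35 libraries was sequenced with a 3' end kit (QuantSeq), per the labels' protocols. Reads were aligned with HISAT2 2.1.0 to mm10, and DESeq is named without a version, per the submitters' processing notes. The counting tool, its handling of reads shared by copies and its annotation are not given in the sources used here. The authors deposited raw counts per gene and mouse, with libraries of a mouse merged, and a table of normalized values, treated as a score. The deposited normalized score equalled the count divided by a size factor within 0.51 for 99.99% of values.

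Here each comparison was fitted on its 2 groups with edgeR 4.0.16 (quasi-likelihood, TMM, two-sided) in R 4.3.3, with 15297 of 55413 genes kept by filterByExpr and Benjamini-Hochberg adjustment at 0.05. CPM used TMM factors over all 21 mice, and correlations log2 CPM with a prior count of 2. Alternatives were DESeq2 1.42.0, limma 3.58.1 (voom, and trend on log2 of the normalized score + 1), other scalings and filters, all mice in 1 fit, a replicate block, summed copies and leaving out each mouse. Scripts were tested on simulated data. The mouse was the unit; the labels number mice as biological replicates. Gene models are GENCODE's; promoters are RefSeq's.

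The members and lists were chosen with earlier results of these data known. All members were tested in every comparison. All were named for Smyd3 over control ASO and for control ASO over untreated. For the other comparisons the members that passed were named, and only some of those that did not pass. Of each other list, genes were named from the 4 with the smallest adjusted p in Smyd3 over control ASO and in control ASO over untreated; Nqo1, Dbp and G6pdx were named after their values were seen. Genes of like pattern were the 5 with the highest Pearson r to the most abundant member of each class, leaving out unnamed genes.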

Additional observations from a re-analysis of the deposited data

Results flagged for a closer look

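In 3 of 40 groups of 4 to 6 mice tested over the 10 genes, 1 mouse lay far from the others by Dixon's criterion, which flags about 5% of groups by chance. Untreated mouse 5 had the lowest Gsta2 level of its group, 3.74 CPM, and the nearest untreated mouse had 25.3 CPM. Control-ASO mouse 3 had the highest Gsta2 level of its group, 70.9 CPM, and the nearest had 31.8 CPM. Untreated mouse 2 had the highest Gstm3 level of its group, 218 CPM, and the nearest had 94.5 CPM.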

How the results depend on the processing

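Over the 10 members and 6 comparisons, alternatives other than leaving out a mouse left 476 values with the same direction and call, gained 28 calls, lost 48 and turned 12 directions. Under library totals the log2 differences that turned were, for control ASO over untreated, Gsta4 0.075 and Gstm4 0.55; for Smyd3 ASO over untreated, Gsta3 0.49, Gsta4 0.69 and Gstm1 0.54; for day 133 over untreated, Gsta4 0.42, Gstm1 0.54 and Gstm4 0.15; for control ASO over day 133, Gstm2 0.014; and for Smyd3 ASO over day 133, Gsta4 0.27. That scaling raised the median of all genes in each of these comparisons. With that median subtracted, the 10 values were, in the same order, at -0.83, -0.35, -0.47, -0.27, -0.41, -0.17, -0.05, -0.44, -0.27 and -0.07. Subtracting it centres the genes much as TMM does, so this is no separate test of the signs. Scaling by library totals called 10723 genes and 2 members for control ASO over untreated. It called 7292 genes and 4 members for day 133 over untreated, and 4840 genes and 2 members for control ASO over day 133. Members called are given here with all genes called by the same fit in brackets. With edgeR as reported they were 7 (7018) for control ASO over untreated, 3 (7288) for Smyd3 ASO over untreated, 2 (4839) for day 133 over untreated, 4 (4131) for control ASO over day 133 and 2 (3794) for Smyd3 ASO over day 133. DESeq2 called 5 (4948) for day 133 over untreated and 5 (4499) for Smyd3 ASO over day 133. Limma voom called 4 (6781) for control ASO over untreated, 1 (6965) for Smyd3 ASO over untreated and 1 (3022) for Smyd3 ASO over day 133. Without the filter they were 3 (6781) for control ASO over untreated, 1 (7273) for Smyd3 ASO over untreated and 1 (3282) for Smyd3 ASO over day 133. The normalized table called 1 (7368) for Smyd3 ASO over untreated. With all 21 mice in 1 fit they were 1 (4654) for day 133 over untreated, 2 (3634) for control ASO over day 133 and 4 (4707) for Smyd3 ASO over day 133. The cause was not tested.

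The replicate numbers did not pair the mice, with correlations of same-numbered mice of -0.12 to 0.11. With the replicate block, members called (all genes in brackets) were 1 (3092) for Smyd3 over control ASO, 3 (5699) for control ASO over untreated, 6 (4358) for day 133 over untreated and 1 (2530) for control ASO over day 133, and Gstm2 and Gstm3 turned to -0.19 and -0.080 in Smyd3 ASO over untreated.

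On leaving out each mouse, 3233 to 4446 genes and 3 to 6 members passed for Smyd3 over control ASO, 6208 to 6886 and 4 to 7 for control ASO over untreated, 6434 to 7502 and 3 to 4 for Smyd3 ASO over untreated, 3977 to 4947 and 2 to 5 for day 133 over untreated, 3137 to 4318 and 2 to 4 for control ASO over day 133, and 2519 to 4282 and 1 to 4 for Smyd3 ASO over day 133. The lowest gene count in the last came without day 133 mouse 2. Members fell to 2 for control ASO over day 133 without day 133 mouse 2 or 3 or control-ASO mouse 1, 2, 4 or 6. For Smyd3 ASO over day 133 they fell to 1 without any 1 of the day 133 mice or Smyd3-ASO mouse 1, 2 or 6, and rose to 4 without Smyd3-ASO mouse 4. Directions turned within these ranges of the log2 difference: -0.38 to 0.15 (Gstp1) and -0.45 to 0.21 (Gstp2) for Smyd3 over control ASO, -0.28 to 0.44 (Gsta2) for control ASO over untreated, -0.47 to 0.16 (Gstm1) for day 133 over untreated, and -0.21 to 0.032 (Gsta4) and -0.54 to 0.10 (Gstm1) for Smyd3 ASO over day 133. None of these had passed with all mice.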
